A study of Mus musculus with 6 samples.

Results

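The genes described here encode heat shock proteins, J-proteins and chaperonins, the machinery that folds, refolds and moves other proteins. They were taken from the count table by gene symbol: the Hsp90 and Hsp70 families with the Hsp110 proteins, the small heat shock proteins, the Dnaja, Dnajb and Dnajc genes, the CCT subunits, Hspd1, Hspe1 and the heat shock factors Hsf1 and Hsf2. This gave 73 of the 15565 genes in the table, without relatives under other symbols such as Trap1 and Hyou1, and 72 of the 73 passed the expression filter. Hspa12b did not, with at most 0.189 CPM (counts per 1e6 counts, scaled by TMM) in any library.

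The libraries are polyadenylated RNA of hepatocytes, the parenchymal cells of the liver, from 3 C57BL/6 mice of 2 months with the genotype Tert(CreERT2/+); R26(LSL-Tomato/+). All mice thus carried an inducible Cre recombinase at 1 Tert allele and a Cre-dependent Tomato reporter, in TERT(High) and TERT(Low) cells alike, and no agent is named in the labels. Cells of each perfused liver were sorted into a TERT(High) and a TERT(Low) population, so that TERT(High) 1 and TERT(Low) 1 come from mouse 1, and so on, with 3 libraries in each of 2 groups. The question is how the RNA of these genes differs between hepatocytes of high and low Tert, the gene of the catalytic subunit of telomerase.

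Chaperones work in relays. J-proteins bring a client to an Hsp70 and trigger its ATP hydrolysis, nucleotide exchange factors such as the Hsp110 proteins and the Grpe proteins reopen the Hsp70, and Hsp90 and the barrel-shaped chaperonins take over clients that need more help. Mitochondria and the endoplasmic reticulum each have their own Hsp70 and J-proteins, and in the liver, an organ of heavy protein secretion, both sets are strongly used. The inducible members rise when Hsf1, the main heat shock factor, binds heat shock elements near their start sites.

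Library totals, in units of 1e6 counts, ran from 53.6 to 76.2. Tert itself had 38, 33 and 30 counts in TERT(High) 1, 2 and 3 and 21, 21 and 12 in TERT(Low) 1, 2 and 3, and edgeR did not call it (log2 fold change 0.87, SE 0.44, adjusted p = 0.249). Hepatocyte markers summed to between 112462 and 132674 CPM in all libraries, with Alb the highest. Of these 10, edgeR called 1 lower (Asgr1, log2 fold change -0.71, adjusted p = 0.0485) and DESeq2 called 3 lower. Alb lay wholly above in TERT(High), and 3 (Apoa1, Ttr and Asgr1) lay wholly below. Markers of liver sinusoidal endothelium summed in TERT(High) to 49.7 to 78.9 CPM and in TERT(Low) to 31.3 to 42.1 CPM, 4 of 10 were called higher by edgeR (adjusted p under 0.05), and none was at 0. Kupffer cell markers came to 108 CPM in TERT(High) 3, to 51.9 CPM in TERT(Low) 3 and to 17.2 to 21.2 CPM elsewhere, with 0 of 10 called by edgeR, 0 at an unadjusted p under 0.05 and 0 by DESeq2. Neutrophil markers summed in TERT(High) to 5.27 to 12.7 CPM and in TERT(Low) to 4.90 to 11.9 CPM, sums in which Cxcr2, at 3.25 against 6.72 CPM, weighs most and goes against the others. Of the 7 tested neutrophil markers 6 had positive log2 fold changes and 5 lay wholly above, with a median of 2.12. edgeR called 0 of the 7, an unadjusted edgeR p under 0.05 held for 4 that were higher and 1 that was lower, DESeq2 called 2 higher, and Ngp, Camp and Ltf were at 0 in TERT(Low) 1. Cholangiocyte markers summed in TERT(High) to 9.09 to 15.0 CPM and in TERT(Low) to 4.13 to 7.66 CPM, with 0 of 3 tested ones called by edgeR, 0 at an unadjusted p under 0.05 and 0 by DESeq2, and Epcam at 0 in TERT(High) 2 and TERT(Low) 1. Markers of T and NK cells came to at most 1.66 CPM. Stellate cell markers were at 143 CPM in TERT(High) 1, nearly all Col1a1, against 4.97 to 10.8 CPM in the other libraries. A list of 12 neuronal and glial genes, put together after the libraries had been seen, summed to 46.9 CPM in TERT(High) 3, 110 CPM in TERT(Low) 1 and 47.9 CPM in TERT(Low) 3, and to at most 2.77 CPM in the others. Immediate early genes that respond to cell isolation ranged from 179 to 365 CPM in TERT(High) and from 117 to 506 CPM in TERT(Low), with 0 of 17 called by edgeR, 0 at an unadjusted p under 0.05 and 0 by DESeq2. The part of these lists in the results below was not tested unless a value is given beside a result.

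In edgeR's quasi-likelihood fit, with p adjusted over all genes by the Benjamini-Hochberg method, 5 of the 72 tested chaperone genes were higher in TERT(High) cells and 0 were lower. These were 2 J-proteins (Dnajc21 and Dnajc13), 2 Hsp110 proteins (Hspa4l and Hspa4) and the mitochondrial Hsp70 (Hspa9). That is 6.94% of them, beside 8.14% of all 13288 genes tested (4.43% higher and 3.71% lower), so chaperone genes as a whole were called about as often as any gene. At an unadjusted p under 0.05, 17 were higher and 9 lower, where all genes gave 16.3% higher and 12.4% lower, 28.7% in all. TERT(High) values lay wholly above TERT(Low) values for 14 of the 72 and wholly below for 12, beside 17.5% and 15.9% of all genes, 33.4% in all. The median log2 fold change was 0.09, against -0.01 over all genes. Summed over all 73 genes, the RNA came to 5971, 5252 and 6473 CPM in TERT(High) 1, 2 and 3 and to 5140, 4971 and 5139 CPM in TERT(Low) 1, 2 and 3. The summed groups did not overlap, but TERT(High) 2 lay just above TERT(Low) 1. The groups of Hspa8, Hspa5 and Hsp90ab1, the genes of highest CPM, each overlapped. In sorted populations such as these, a change in the share of some cells and a change of RNA per cell cannot be told apart.

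With the mouse as a replicate block, edgeR called all 5 again, plus the J-proteins Dnajc1 (log2 fold change 0.84, adjusted p = 0.0450) and Dnajc2 (1.25, adjusted p = 0.0411) as higher. The edgeR fit with the block also called Dnajc19 (-0.64, adjusted p = 0.0474) and Hspb8 (-0.74, adjusted p = 0.0411) as lower. These 9 genes stand beside 9.72% of all genes with the block, 5.43% higher and 4.3% lower. DESeq2 called 11 higher and 7 lower (all genes 23.4%, of which 12.8% higher and 10.6% lower) and limma-voom 9 higher and 4 lower (all genes 18.5%, of which 10.2% higher and 8.3% lower), each including the 5. In the authors' deposited table, 16 of the 68 chaperone genes listed were past an adjusted p of 0.05 and higher and 7 lower, beside 29.2% of its 10858 genes (15.8% higher and 13.4% lower). edgeR called 0 of them when TERT(High) 2, TERT(High) 3, TERT(Low) 1, TERT(Low) 2 or TERT(Low) 3 was left out, when any mouse was left out, and after a correction for transcript length and GC content. In each of these fits edgeR also called 0 of all genes tested.

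**Figure D1:**
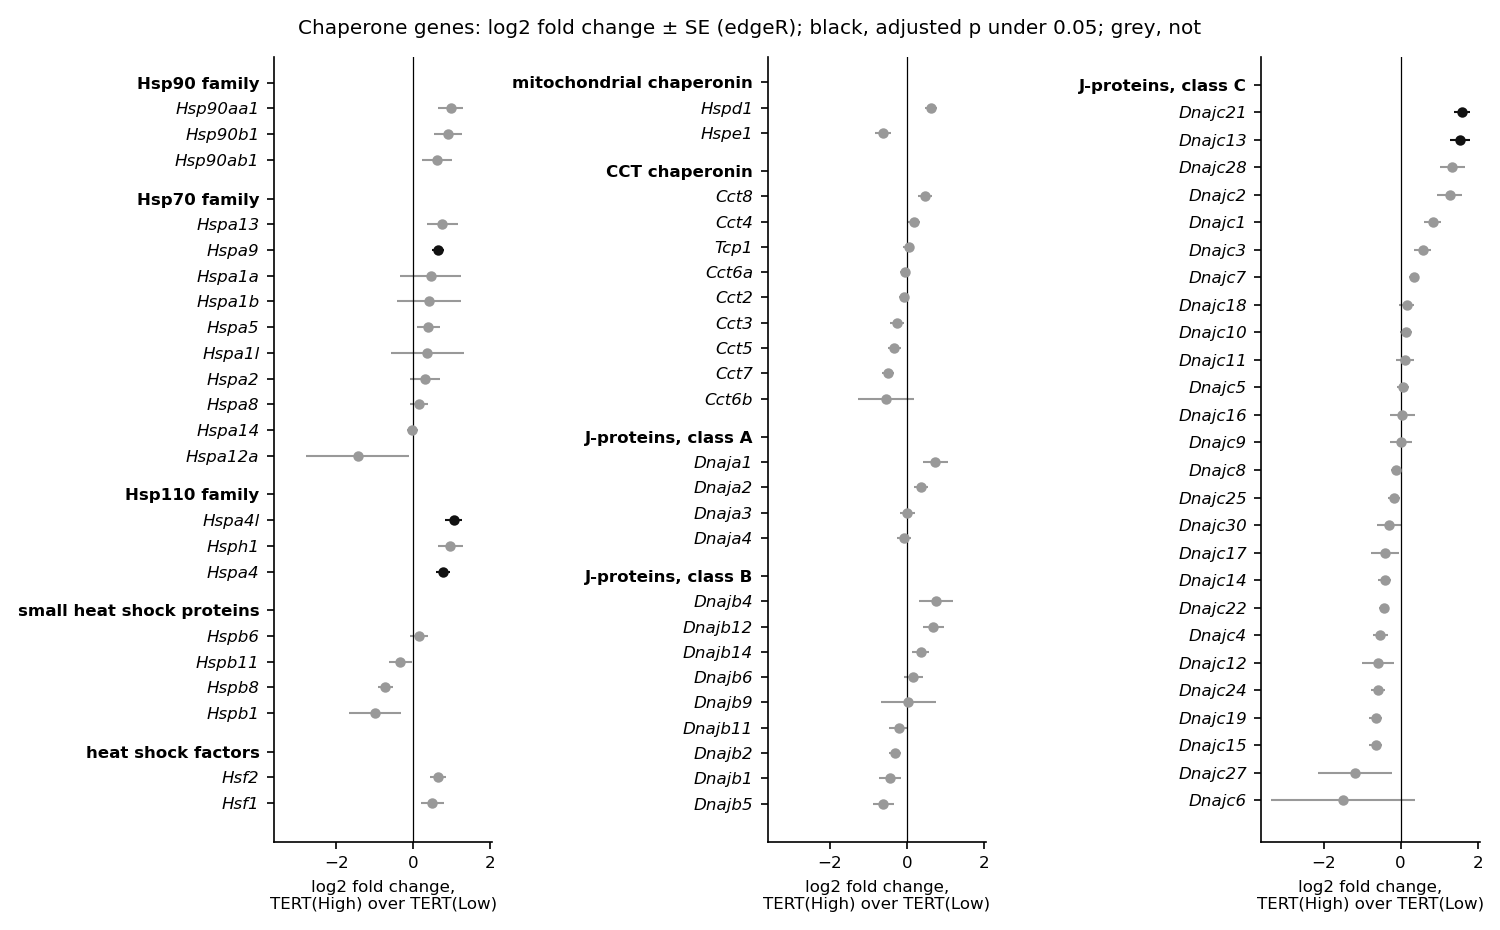
Log2 fold change (horizontal axis, TERT(High) over TERT(Low)) of the 72 tested chaperone genes by family; points are edgeR estimates from 3 libraries a group and bars are standard errors. The 5 black points lie between 0.64 and 1.59, the 3 Hsp110 and 3 Hsp90 genes all lie to the right of 0, and class C J-proteins spread to both sides.

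Levels per kilobase of transcript spanned a wide range and were led by a cytosolic protein. Averaged over the 2 group means, Hspa8, the constitutive cytosolic Hsp70, stood at 502 CPM per kilobase. Next came Hsp90ab1, the constitutive cytosolic Hsp90, at 166, Hspa5, the Hsp70 of the endoplasmic reticulum, at 160.1, Hspe1 at 155 and Hspb8 at 101 CPM per kilobase. By edgeR 0 of these 5 most abundant genes were called, while DESeq2 called Hspe1 and Hspb8 lower and limma-voom and the edgeR fit with the mouse as a block called Hspb8 lower. Of the 5 called genes Hspa9 was at 81.4 and Hspa4 at 10.01 CPM per kilobase, while Dnajc21, Dnajc13 and Hspa4l were at 2.44, 0.934 and 0.853.

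Dnajc21 (Entrez gene 78244, chr15:10446763-10470568, GRCm38.p6) encodes a cytosolic J-protein of large ribosomal subunit maturation and had the largest difference. TERT(High) 1, 2 and 3 held 6.64, 6.87 and 9.11 CPM, and TERT(Low) 1, 2 and 3 held 2.42, 2.39 and 2.69 CPM. All TERT(High) values were above all TERT(Low) values, 7.54 ± 1.36 against 2.50 ± 0.167 CPM (SD, n = 3), a 3.01-fold difference. The log2 fold change was 1.59 (SE 0.20), with an edgeR adjusted p of 0.0274. Leaving out each library in turn gave log2 fold changes from 1.44 to 1.65. Its transcript has 2060 nt, and the length and GC correction left 1.67 (unadjusted p = 1.04e-04, edgeR adjusted p = 0.174). In the authors' deposited table the log2 fold change was 1.46.

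Dnajc13 (Entrez gene 235567, chr9:104151597-104263608) encodes the J-protein of endosomes that brings Hsc70 to sorting membranes. Its levels were 7.21, 8.97 and 11.9 CPM in TERT(High) 1, 2 and 3 and 3.39, 2.62 and 3.66 CPM in TERT(Low) 1, 2 and 3. The groups did not overlap, and the 2.91-fold difference (log2 fold change 1.54, SE 0.25) came with an edgeR adjusted p of 0.0277. The transcript, with 6747 nt, is among the long ones, and the correction lowered the log2 fold change to 0.94 (unadjusted p = 0.00207, edgeR adjusted p = 0.184).

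A further ribosome-linked J-protein was chosen here after its values were seen. Dnajc2 (Entrez gene 22791, chr5:21757266-21785264), which sits on ribosomes together with the Hsp70 Hspa14, was at 4.06, 4.05 and 6.86 CPM in TERT(High) 1, 2 and 3 and at 1.53, 2.18 and 2.52 CPM in TERT(Low) 1, 2 and 3. The groups did not overlap, and the log2 fold change of 1.27 (SE 0.31) came with an edgeR adjusted p of 0.0549 without and 0.0411 with the block. DESeq2 (adjusted p = 0.00514) and limma-voom (adjusted p = 0.0288) called Dnajc2 higher. After the length and GC correction the log2 fold change was 1.28 for this transcript of 2133 nt (unadjusted p = 0.00412, edgeR adjusted p = 0.191). Hspa14, its partner, had a log2 fold change of -0.02 (SE 0.14), and its 6 libraries lay between 7.82 and 9.03 CPM.

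Of the Hsp110 family 3 genes were taken by symbol, and all 3 had TERT(High) values above TERT(Low) values, with 2 called. Summed, the 3 genes came to 92.7, 92.4 and 142 CPM in TERT(High) 1, 2 and 3 and to 61.5, 57.3 and 60.7 CPM in TERT(Low) 1, 2 and 3. Hyou1, a relative in the endoplasmic reticulum, is counted with the nucleotide exchange factors below. The groups of Hyou1 overlapped (log2 fold change 0.26, SE 0.25, edgeR adjusted p = 0.560). Hspa4l (Entrez gene 18415, chr3:40744500-40796103) was at 8.44, 11.7 and 12.5 CPM against 4.36, 6.03 and 5.44 CPM, a 2.06-fold difference with a log2 fold change of 1.05 (SE 0.22, edgeR adjusted p = 0.0410). Hspa4 (Entrez gene 15525, chr11:53259814-53300479), the most abundant of these 3, was at 48.0, 56.0 and 71.1 CPM against 32.9, 34.1 and 35.2 CPM. The TERT(Low) libraries of Hspa4 were close together (SD 1.15 CPM) and those of TERT(High) spread more widely (SD 11.7 CPM), with a log2 fold change of 0.78 (SE 0.18, edgeR adjusted p = 0.0471). With upper-quartile scaling the edgeR adjusted p of Hspa4 was 0.0559, and with no filter 0.0545. Hsph1 (Entrez gene 15505, chr5:149616843-149636498), the stress-inducible member, was at 36.2, 24.7 and 58.2 CPM against 24.3, 17.1 and 20.1 CPM. Its TERT(High) 2 value lay just above TERT(Low) 1, and the log2 fold change of 0.95 (SE 0.32) came with an edgeR adjusted p of 0.110. DESeq2 called Hsph1 higher (adjusted p = 0.0293), and limma-voom did not (adjusted p = 0.0820). Corrected for length and GC, the log2 fold changes were 0.11 for Hspa4l, whose transcript has 9479 nt, 0.40 for Hspa4 and 0.71 for Hsph1.

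**Figure D2:**
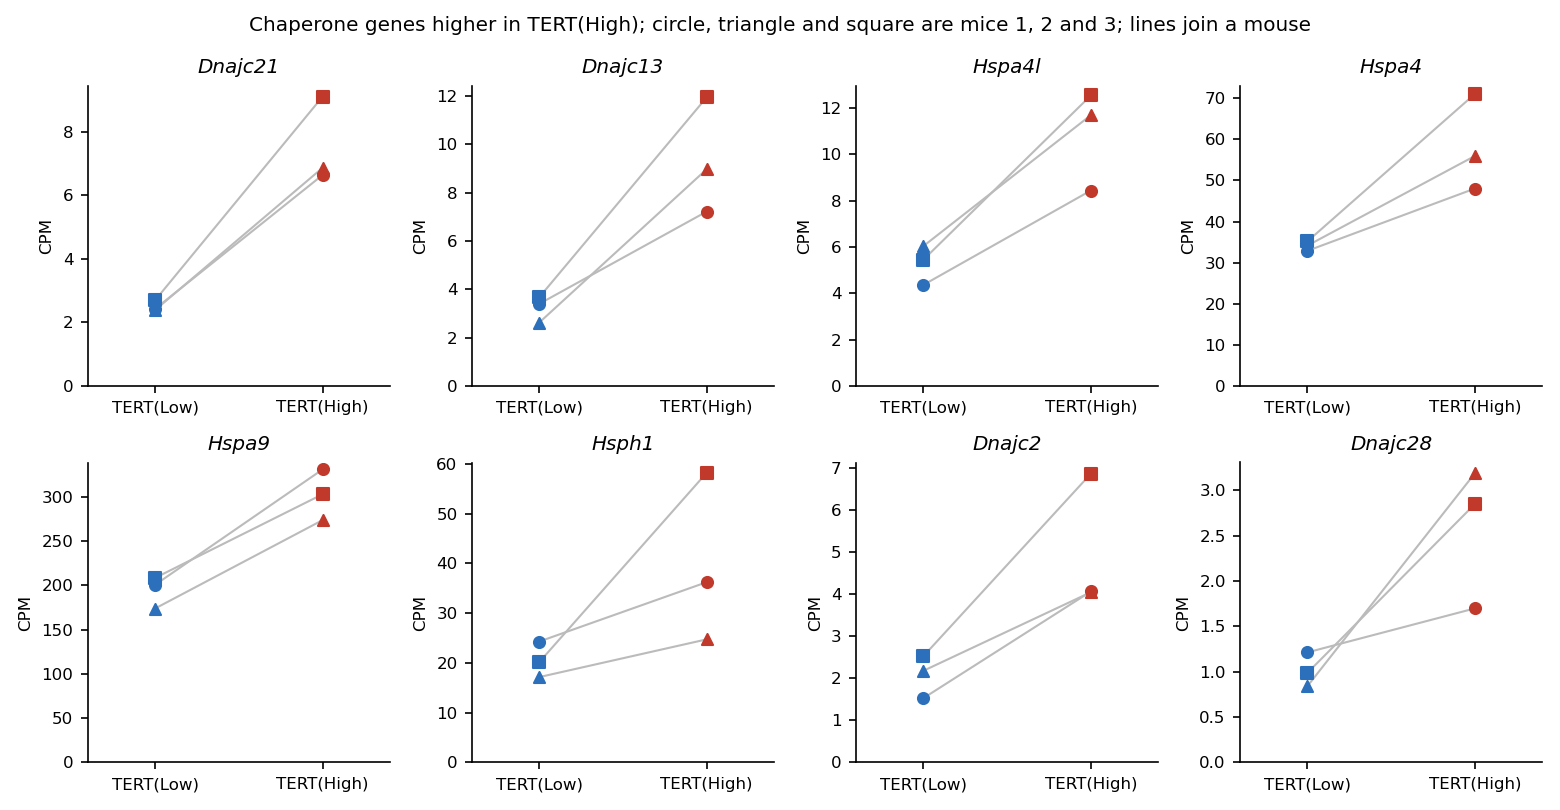
CPM (vertical axis, from 0) of 8 chaperone genes in the 3 TERT(Low) and 3 TERT(High) libraries; lines join the libraries of a mouse. TERT(High) lies above TERT(Low) in all 3 mice for each gene, and the 5 called genes are the first 5 panels, from Dnajc21 to Hspa9.

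Of the Hsp90 family 3 genes were taken by symbol, and all 3 log2 fold changes were positive. By edgeR 0 of the 3 were called, with 2 at an unadjusted p under 0.05, 1 called by DESeq2 (Hsp90aa1) and 0 by limma-voom. Trap1, the mitochondrial Hsp90, is counted with the partner genes below, and its groups overlapped (log2 fold change -0.01, SE 0.17, edgeR adjusted p = 0.969). The authors' deposited table had all 3 genes taken by symbol past an adjusted p of 0.05 and higher, where 15.8% of its genes were. Its adjusted p were 0.0219 for Hsp90aa1, 0.0222 for Hsp90ab1 and 0.00579 for Hsp90b1. Hsp90aa1 (Entrez gene 15519), the inducible cytosolic Hsp90, was at 119, 63.1 and 141 CPM in TERT(High) 1, 2 and 3 and at 41.5, 64.2 and 60.0 CPM in TERT(Low) 1, 2 and 3. In mouse 2 the populations were level and in the others TERT(High) was higher, with a log2 fold change of 0.97 (SE 0.33, edgeR adjusted p = 0.109). Hsp90ab1 was at 279, 702 and 529.6 CPM against 253, 466 and 274 CPM, so the groups overlapped, with a log2 fold change of 0.60 (SE 0.39, edgeR adjusted p = 0.364). Hsp90b1, the Hsp90 of the endoplasmic reticulum, was at 291, 283 and 411 CPM against 95.2, 252 and 178 CPM. The groups of Hsp90b1 did not overlap, but TERT(Low) 2 lay close to the TERT(High) range, and the log2 fold change of 0.91 (SE 0.36) came with an edgeR adjusted p of 0.156.

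Chaperones of the endoplasmic reticulum had mostly positive differences and no call by edgeR without the block. Of 13 genes 11 had positive log2 fold changes, with a median of 0.36. By edgeR 0 were called, against 4 at an unadjusted p under 0.05. DESeq2 called 1, Dnajc1 (adjusted p = 0.00804), which limma-voom called too (adjusted p = 0.0210). In the authors' deposited table Hsp90b1, Hspa13, Dnajb12 and Dnajc1 were past an adjusted p of 0.05 and higher. Hspa5 was at 772, 401 and 828 CPM in TERT(High) 1, 2 and 3 and at 606, 447 and 474 CPM in TERT(Low) 1, 2 and 3, which overlap (log2 fold change 0.39, SE 0.30, edgeR adjusted p = 0.446). Dnajc1, a membrane J-protein that binds Hspa5 and ribosomes and is named here for its call with the block, was at 11.9, 14.5 and 15.2 CPM against 6.21, 9.72 and 7.47 CPM. The 2 groups of Dnajc1 did not overlap (0.83, SE 0.21, edgeR adjusted p = 0.0607). After the length and GC correction Hspa5 was at 0.11 and Dnajc1 at 0.41, and the median of the 13 genes was -0.15, on the other side of 0.

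Mitochondrial chaperones divided. Of 10 genes 3 lay wholly above in TERT(High), 4 wholly below and 3 overlapped, beside 17.5% above and 15.9% below of all genes. By edgeR 1 was called higher and 0 lower (all genes 4.43% and 3.71%). At an unadjusted p under 0.05, 3 were higher and 4 lower (all genes 16.3% and 12.4%). DESeq2 called 3 higher and 3 lower (all genes 12.8% and 10.6%), and limma-voom 3 higher and 2 lower (all genes 10.2% and 8.3%). The median log2 fold change of the 10 was -0.15, and 0.04 after the length and GC correction.

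Hspa9 (Entrez gene 15526), the matrix Hsp70 that pulls in and folds imported proteins, was at 331, 274 and 303 CPM in TERT(High) 1, 2 and 3 and at 200.4, 174 and 208 CPM in TERT(Low) 1, 2 and 3. The gap between the groups was wider than the spread within either, with 302 ± 28.6 against 194 ± 18.1 CPM (SD, n = 3). The log2 fold change of 0.64 (SE 0.15) came with an edgeR adjusted p of 0.0494. Other scalings ended the call, with adjusted p of 0.0642 (size factors of DESeq2), 0.0692 (upper quartiles) and 0.0585 (library totals), as did testing with no filter (0.0545). Leaving out TERT(High) 1 ended the edgeR call of Hspa9 too (adjusted p = 0.0892).

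Hspd1 (Entrez gene 15510, chr1:55077833-55088243) and Hspe1 (Entrez gene 15528, chr1:55088148-55091317) encode the barrel and the lid of the mitochondrial chaperonin, and lie head to head. Hspd1 was at 279, 221 and 232 CPM in TERT(High) 1, 2 and 3 and at 142, 171 and 161 CPM in TERT(Low) 1, 2 and 3. Hspe1 went the other way, at 86.5, 108 and 89.9 CPM against 114, 179.7 and 143 CPM. Neither pair of groups overlapped, and neither gene was called by edgeR, with log2 fold changes of 0.62 (SE 0.16, adjusted p = 0.0560) for Hspd1 and -0.62 (SE 0.20, adjusted p = 0.101) for Hspe1. DESeq2 called both, with adjusted p of 0.00866 and 0.0272. The ratio of Hspd1 to Hspe1 in CPM per kilobase, chosen after both were seen, was 0.836 ± 0.189 in TERT(High) and 0.354 ± 0.0479 in TERT(Low) (SD, n = 3). It was higher in TERT(High) in all 3 mice, a separation that the choice of these genes fixes. An exact permutation test run on the ratio therefore cannot bear on this separation and is not used. Annotated transcripts of the genes overlap and the strand setting of the counting is not given in the sources used here, so reads of the shared stretch are uncertain. Hspe1 has a short transcript of 774 nt, and the correction for length and GC left it at -0.08 and Hspd1, of 2423 nt, at 0.62.

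The stretch between their starts, 215 bases in RefSeq, is shown because both genes are read outward from it. It holds a run of 4 heat shock element units (TTC and GAA in turn), in capitals below, on the plus strand of GRCm38.p6 at chr1:55088053-55088082. The letters are within an annotated first exon of Hspd1.
Hspd1-Hspe1: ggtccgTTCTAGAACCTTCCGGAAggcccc

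J-proteins of the import motor at the inner membrane lay below, without a call by edgeR unless the mouse was a block, which called Dnajc19 and not Dnajc15. Both were called lower by DESeq2 (adjusted p = 0.00648 for Dnajc19 and 0.00846 for Dnajc15) and by limma-voom (0.0445 and 0.0477). The authors' deposited table had both lower too, with adjusted p of 0.00325 and 0.0115. Dnajc19 (Entrez gene 67713) was at 33.6, 29.1 and 36.0 CPM in TERT(High) 1, 2 and 3 and at 46.9, 46.9 and 61.0 CPM in TERT(Low) 1, 2 and 3. Its paralog Dnajc15 (Entrez gene 66148) was at 18.9, 17.4 and 19.5 CPM against 24.7, 28.3 and 34.9 CPM. For both the groups did not overlap, and the log2 fold changes were -0.65 each (SE 0.17 each, edgeR adjusted p = 0.0624 and 0.0622, and 0.0474 and 0.0584 with the block). The correction did not shrink these 2 differences, which came to -0.86 for Dnajc19 and -1.24 for Dnajc15. It used annotated transcripts of 2499 and 6193 nt, which are long for coding sequences of 471 and 447 nt. Whether transcripts of these lengths are the ones expressed here was not tested, so the corrected values are uncertain. Dnajc28, chosen after its values were seen, stood at the opposite end with a log2 fold change of 1.34 (SE 0.32, edgeR adjusted p = 0.0530) at levels of 0.840 to 3.19 CPM. DESeq2 (adjusted p = 0.00671) and limma-voom (adjusted p = 0.0269) called Dnajc28 higher, and edgeR with the block did not (adjusted p = 0.0774).

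**Figure D3:**
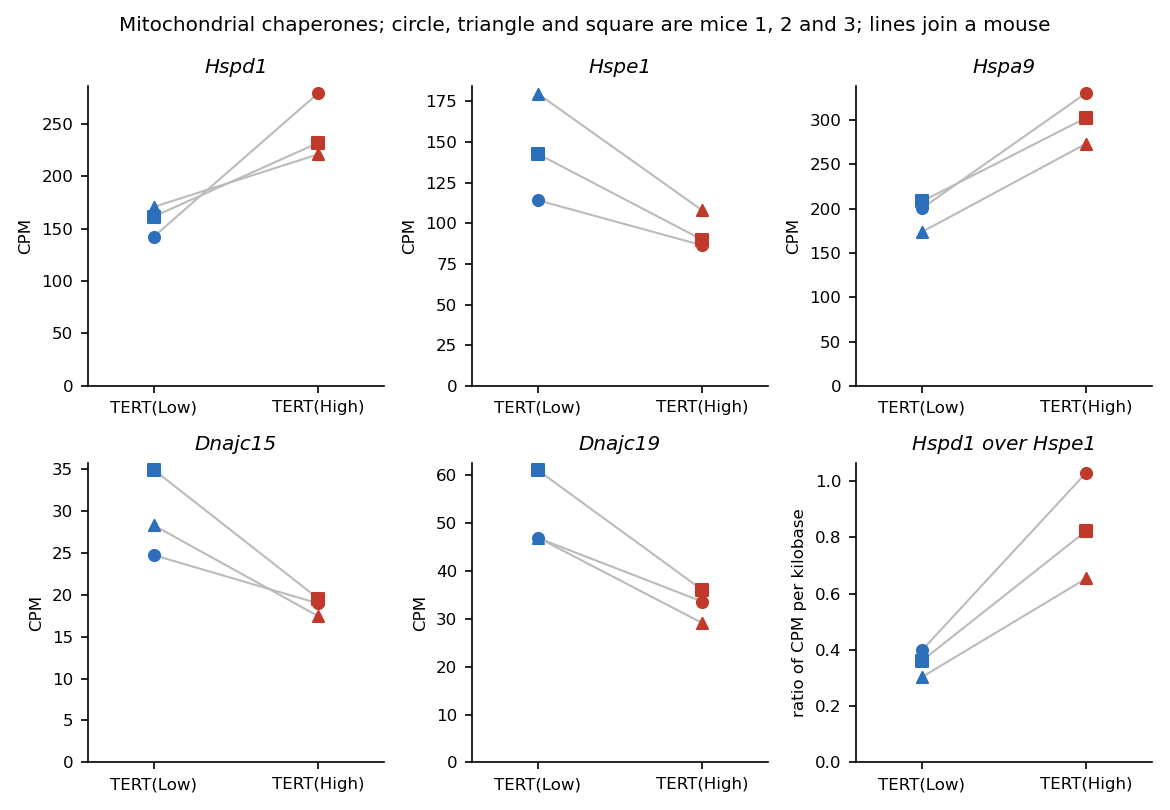
CPM (vertical axes, from 0) of 5 mitochondrial chaperone genes, and the ratio of Hspd1 to Hspe1 in CPM per kilobase, in each TERT(Low) and TERT(High) library; lines join the libraries of a mouse. In every mouse the TERT(High) point is the higher one for Hspd1 and Hspa9 and the lower one for Hspe1, Dnajc15 and Dnajc19, and the mean ratio is 0.354 in TERT(Low) and 0.836 in TERT(High).

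The cytosolic chaperonin CCT, which folds actin and tubulin, showed 0 calls among 9 subunit genes by edgeR and 1 by DESeq2 (Cct7, lower). At an unadjusted p under 0.05, 1 was higher and 1 lower. The landmark Tcp1 was at 180.3, 159.6 and 161.5 CPM in TERT(High) 1, 2 and 3 and at 146, 162 and 179.7 CPM in TERT(Low) 1, 2 and 3, with a log2 fold change of 0.04 (SE 0.14). Chosen after their values were seen, Cct8 (log2 fold change 0.46, SE 0.18, edgeR adjusted p = 0.155) lay wholly above, and Cct7 (-0.50, SE 0.16, edgeR adjusted p = 0.0920) and Cct5 (-0.33) wholly below. The groups of the other 6 overlapped. The ratio of Cct8 to Cct7 in CPM per kilobase was 0.909 ± 0.233 against 0.466 ± 0.0871 (SD, n = 3), again fixed in direction by the choice.

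Small heat shock proteins, which hold unfolded proteins without ATP, had 3 of 4 log2 fold changes below 0 and 0 called by edgeR, with 1 at an unadjusted p under 0.05 and 1 called lower by DESeq2 and by limma-voom. That was Hspb8 (Entrez gene 80888), the most abundant of them. Its levels were 170.3, 128 and 116 CPM in TERT(High) 1, 2 and 3 and 254, 232 and 198 CPM in TERT(Low) 1, 2 and 3. The groups did not overlap, with a log2 fold change of -0.72 (SE 0.19, edgeR adjusted p = 0.0649 without and 0.0411 with the block). The length and GC correction left -0.44 (edgeR adjusted p = 0.444) for Hspb8 and moved the median of the 4 genes from -0.53 to -0.13. Hspb1 was at 4.603, 5.75 and 2.75 CPM against 6.51, 17.2 and 2.39 CPM. TERT(Low) 2 alone was high, and the groups overlapped (log2 fold change -0.99, SE 0.68, edgeR adjusted p = 0.393, and -0.48 after the correction).

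Of the heat shock factors, Hsf1 was at 3.17, 5.66 and 4.43 CPM in TERT(High) 1, 2 and 3 and at 2.63, 4.16 and 2.62 CPM in TERT(Low) 1, 2 and 3, which overlap (log2 fold change 0.50, SE 0.30, edgeR adjusted p = 0.341). Hsf2, a second factor of the family, was at 11.2, 9.83 and 7.69 CPM against 5.10, 6.93 and 6.37 CPM. All TERT(High) values of Hsf2 were above (0.64, SE 0.21, edgeR adjusted p = 0.102). Among 10 genes of the inducible heat shock response 7 log2 fold changes were positive and 3 negative, and 0 were called by edgeR. At an unadjusted p under 0.05, 3 were higher and 1 lower, and DESeq2 called the same numbers. Dnaja1, a main cytosolic partner of Hsc70, was at 217, 89.6 and 179.9 CPM against 102, 81.9 and 109 CPM, and Dnajb1, the inducible partner of Hsp70, at 35.0, 16.8 and 30.4 CPM against 37.3, 32.3 and 42.7 CPM. Both overlapped, with log2 fold changes of 0.73 (SE 0.33, edgeR adjusted p = 0.200) and -0.45 (SE 0.28, edgeR adjusted p = 0.353). Corrected for length and GC, Dnaja1, with a transcript of 5622 nt, was at 0.06 and Hsf2 at 0.42.

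The inducible Hsp70 genes differed by mouse far more than by sorted population. Hspa1a (Entrez gene 193740, chr17:34969359-34972156) was at 29.7, 5.76 and 28.6 CPM in TERT(High) 1, 2 and 3 and at 26.9, 3.90 and 16.1 CPM in TERT(Low) 1, 2 and 3. Hspa1b (Entrez gene 15511, chr17:34956429-34959238) was at 53.3, 8.87 and 49.2 CPM against 48.0, 6.95 and 29.2 CPM. Both libraries of mouse 2 were below all others for both genes, and the 4 libraries of mice 1 and 3 averaged 5.24 times the mouse 2 level for Hspa1a and 5.68 times for Hspa1b. Within mice, TERT(High) was the higher of each pair, and the log2 fold changes of 0.45 (SE 0.80, edgeR adjusted p = 0.743) and 0.40 (SE 0.83, edgeR adjusted p = 0.778) were smaller than their errors. With the mouse as a block the adjusted p were 0.124 and 0.154. The neighbouring Hspa1l was at 1.22, 0.429 and 1.46 CPM against 1.47, 0.0764 and 0.854 CPM, again lowest in mouse 2. Hspa1a and Hspa1b are near-identical copies, so how reads were split between them is uncertain. The ratio of Hspa1a to Hspa1b in CPM per kilobase was 0.520 to 0.614 in all libraries.

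The 120 bases upstream of Hspa1a and Hspa1b are shown because the copies varied together across libraries. RefSeq gives them on the minus strand of GRCm38.p6 at chr17:34972157-34972276 and chr17:34959239-34959358, they match at 119 of 120 positions, and capitals mark a heat shock element of 2 units.
Hspa1a: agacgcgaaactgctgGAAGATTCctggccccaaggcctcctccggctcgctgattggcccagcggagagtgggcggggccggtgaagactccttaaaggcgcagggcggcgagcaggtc
Hspa1b: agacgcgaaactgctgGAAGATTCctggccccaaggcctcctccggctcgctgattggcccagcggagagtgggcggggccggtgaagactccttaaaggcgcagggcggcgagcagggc

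Across the chaperone genes, the 250 bases before each RefSeq start were searched on both strands for heat shock elements. An element of 2 units is GAA, any 2 bases and TTC, or TTC, any 2 bases and GAA, and an element of 3 units adds any 2 bases and another GAA or TTC in turn, so that it contains 2 overlapping elements of 2 units. Of the 59 genes with a promoter in the table, 15 held an element of 2 units (25.4%, beside 14.5% of 27025 genes) and 3 held one of 3 units (5.08%, beside 0.514%). The genes with 3 units were Hspd1 and Hspe1, through their common stretch, and Dnajb6, a J-protein that keeps aggregation-prone proteins soluble. No such letters were in the windows of Dnajc21, Dnajc13, Hspa4l or Hspa4, and Hsph1 held 2 units. A match of this kind describes letters only.

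Mouse accounted for more of the variation of log2 CPM than sorted population in 39 of 72 chaperone genes (54.2%), close to the 52.5% of all genes. Mouse has more levels than population, and the shares were compared without adjusting for this, which favours mouse. The largest shares by mouse were 99.6% for Dnaja3, a mitochondrial J-protein, 97.7% for Dnajb9, a J-protein of the endoplasmic reticulum induced by unfolded proteins, 95.9% for Hspa1b and 93.7% for Hspa1a. Dnajb9 (Entrez gene 27362) was at 175, 31.4 and 117 CPM in TERT(High) 1, 2 and 3 and at 135, 35.7 and 145 CPM in TERT(Low) 1, 2 and 3. Mice 1 and 3 thus held 4.26 times the mouse 2 level, and the group difference was 0.04 (SE 0.71). In Dnaja3 the libraries of mouse 2 were the highest instead, at 98.4 and 97.7 CPM against 69.2 to 78.5 CPM. Both libraries of mouse 2 lay below all others in 14 of the 72 genes (19.4%), beside 9.9% of all genes, and above all others in 6 (8.33%), beside 8.2%. This pattern was noticed in these data, and mouse 2 is 1 animal. Among the 14 are the near-identical copies Hspa1a and Hspa1b. Dnajc6 and Hspa12a, genes of low level that followed the list of neuronal and glial genes across libraries, are among them too. Hspa8 belongs to those 14, at 1167, 1091 and 1523 CPM in TERT(High) 1, 2 and 3 and 1362, 858 and 1208 CPM in TERT(Low) 1, 2 and 3, with a group difference of 0.14 (SE 0.23).

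**Figure D4:**
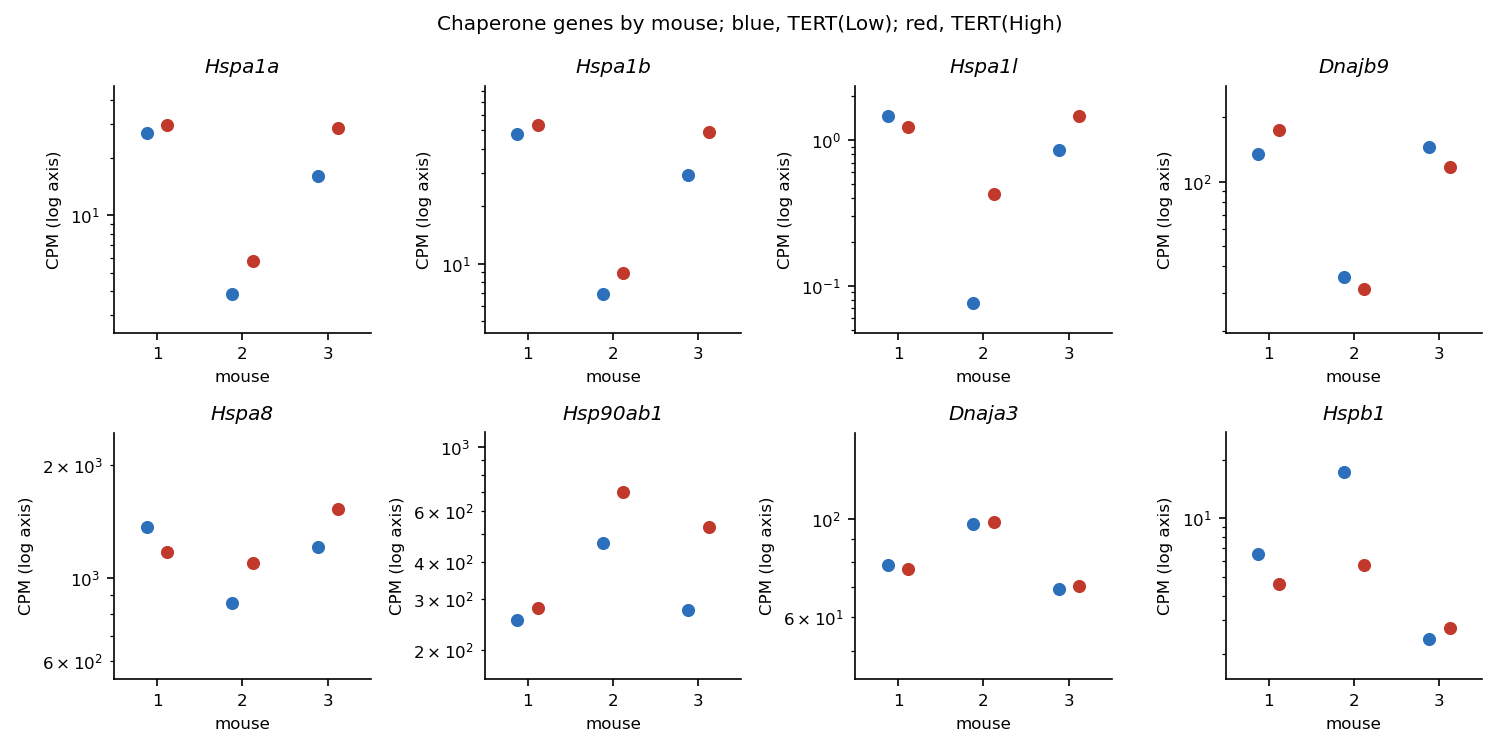
CPM (vertical axes, logarithmic) of 8 chaperone genes by mouse (horizontal axis), with TERT(Low) in blue and TERT(High) in red, 1 point a library. Hspa1a, Hspa1b, Hspa1l and Dnajb9 are lowest in both libraries of mouse 2, Dnaja3 is highest there, and Hspb1 is highest in TERT(Low) 2.

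Class C J-proteins, named for the J domain alone, held both ends of the distribution. Of 26 genes 13 log2 fold changes were positive and 13 negative. Wholly above lay 6 and wholly below 6 (all genes 17.5% and 15.9%). By edgeR 2 were called higher and 0 lower (all genes 4.43% and 3.71%). An unadjusted p under 0.05 held for 7 that were higher and 6 that were lower (all genes 16.3% and 12.4%). DESeq2 called 5 of the 26 higher and 4 lower (all genes 12.8% and 10.6%), and limma-voom 5 higher and 3 lower (all genes 10.2% and 8.3%). The lower ones included, by values seen first, Dnajc24, which serves diphthamide synthesis (-0.60, SE 0.18, edgeR adjusted p = 0.0828), and Dnajc22 (-0.44, SE 0.13, edgeR adjusted p = 0.0840). Their transcripts of 1197 and 1564 nt are short, and the correction left -0.32 and -0.11. Dnajc22 is the class C gene of highest level per kilobase, 52.4 CPM per kilobase. The 4 class A genes were all uncalled and overlapping, and of 9 class B genes 5 were positive, 2 (Dnajb2 and Dnajb5) lay wholly below and 0 were called by edgeR, DESeq2 or limma-voom, with 1 higher at an unadjusted p under 0.05.

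Long transcripts were higher and short ones lower across these libraries, and the chaperone genes followed this in part. Spearman's rho between log2 fold change and transcript length was 0.291 over 71 genes, beside 0.483 over 12576 genes, a description across genes that share the same libraries. After the correction the values were -0.143 and 0.0693. All genes in the length deciles centred on 1874 and 2278 nt had medians of -0.20 and -0.10, and Dnajc21 and Dnajc2, of similar length, stood at 1.59 and 1.27. Hspa4l, the longest of the called genes, had 1.05 where the longest decile of all genes had a median of 0.81. At an unadjusted p under 0.05 the corrected fit had 10 chaperone genes higher and 4 lower, and the smallest adjusted p among them was 0.174, or 0.0632 with the mouse as a block.

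**Figure D5:**
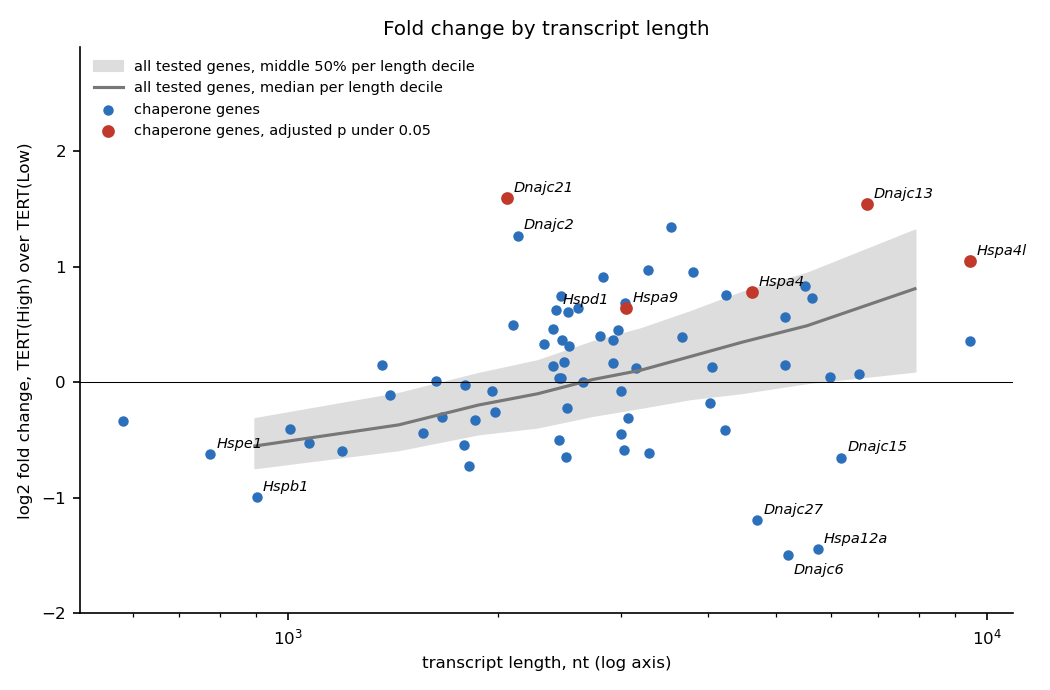
Log2 fold change (vertical axis) against transcript length in nt (horizontal axis, logarithmic) for 71 chaperone genes (points; red, adjusted p under 0.05), with the median and middle 50% of all tested genes per length decile (line and band). Dnajc21 and Dnajc2 lie far above the band, at 2060 and 2133 nt, while Hspa4 lies at its upper edge and Hspa4l, to the right of the last decile's centre, stands at 1.05 where the middle 50% of that decile runs from 0.10 to 1.32.

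Partner genes of these chaperones, 63 in 5 lists, had 0 higher and 4 lower by edgeR (6.35%). These 4 genes, all lower, stand beside 3.71% of all genes called lower and 4.43% called higher, 8.14% in all. The median log2 fold change of the 63 was -0.11, against -0.01 over all genes. At an unadjusted p under 0.05, 3 were higher and 16 lower, beside 16.3% and 12.4% of all genes. DESeq2 called 2 higher and 11 lower (all genes 12.8% and 10.6%) and limma-voom 1 and 7 (all genes 10.2% and 8.3%). Prefoldin and other CCT cofactors, which hand clients to the chaperonin, held 2 of the 4: Pfdn5 was at 48.5, 49.0 and 52.9 CPM in TERT(High) 1, 2 and 3 and at 83.3, 93.1 and 97.9 CPM in TERT(Low) 1, 2 and 3. The groups of Pfdn5 were far apart (-0.87, SE 0.13, edgeR adjusted p = 0.0277), and Uxt, a prefoldin-like subunit, fell by 0.80 on the log2 scale (SE 0.17, edgeR adjusted p = 0.0413). The others were Tbcb, a tubulin folding cofactor (-0.69, SE 0.16, edgeR adjusted p = 0.0494, and 0.0528 with the block), and Clpp, the proteolytic core of a mitochondrial protease (-0.68, SE 0.14, edgeR adjusted p = 0.0396). None of the 4 was called with library totals alone or after the length and GC correction. Among nucleotide exchange factors 0 of 11 were called by edgeR, with 2 lower at an unadjusted p under 0.05, 2 lower by DESeq2, 2 lower with upper-quartile scaling and 1 lower with the mouse as a block. The gene called with the block was Hspbp1 (-0.63, SE 0.16, edgeR adjusted p = 0.0574 without and 0.0487 with it). Grpel1, the exchange factor of Hspa9, was at 101, 97.4 and 90.4 CPM against 152, 128 and 143 CPM, wholly below and opposite in sign to Hspa9 (-0.55, SE 0.14, edgeR adjusted p = 0.0549). Yme1l1, a protease of the inner membrane chosen after its values were seen, lay wholly above (0.95, SE 0.23, edgeR adjusted p = 0.0549). The block called 1 partner gene higher, Clpx, the unfoldase that feeds Clpp, at 27.9, 93.5 and 51.0 CPM against 16.5, 54.1 and 31.2 CPM. TERT(High) was higher in each mouse and the groups overlapped (0.76, SE 0.55, edgeR adjusted p = 0.426 without and 0.0407 with the block).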

How the data were processed

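RNA of sorted TERT(High) and TERT(Low) hepatocytes from the same 3 mice was sequenced with a stranded mRNA kit, per the labels' protocols. Reads were trimmed with Trim Galore 0.4.0 and aligned with TopHat2 2.0.13 to mm10 and DESeq2 was used, per the submitters' processing notes. The read counter, its strand setting and the annotation were not given in the sources used here, so reads of overlapping genes and near-identical copies are uncertain. The deposited table holds raw counts per gene, named by Entrez number and symbol per the file headers. In the authors' deposited results table the log2 fold changes and the adjusted p-values are those of their own comparison. Its direction, TERT(High) over TERT(Low), was read from the counts.

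The counts were tested with edgeR 4.0.16 (R 4.3.3; filterByExpr by group, TMM, robust quasi-likelihood, group alone, Benjamini-Hochberg adjusted p under 0.05 over 13288 genes). The standard error (SE) is the absolute log2 fold change over the square root of F. P-values treat the libraries as independent, although pairs share a mouse, as the labels state. Within a mouse, the deviations of the libraries from the group means correlated at -0.089, 0.733 and 0.601 for mice 1 to 3, and the common coefficient of variation was 40.7%, or 29.64% with the mouse as a block. Alternatives were other scalings, filters and tools (DESeq2 1.42.0, limma 3.58.1), left-out libraries and mice, and offsets for transcript length and GC content (splines of 4 degrees of freedom, GENCODE M21 transcript of longest coding sequence, 93.3% of genes). The edgeR fit by group alone, DESeq2 and limma-voom were tried on simulated counts without a mouse effect or a length trend. The fits with the block, the correction, other scalings or filters, or left-out libraries were not simulated. Shares of variation by mouse use log2(CPM + 0.1). Promoters are RefSeq's, GRCm38.p6, and matched 59 of the 73 genes by Entrez number. No entry was used for Hspa13, Cct4, Dnajc5, Hspa8, Hsf1, Hsp90ab1, Hsp90aa1, Hspa9, Dnajc2, Dnajc11, Dnajc12, Dnajc30, Dnajc22 and Dnajc18. Other computations used Python 3.11.15, pandas 2.3.3, numpy 2.4.6, scipy 1.17.1 and matplotlib 3.10.9.

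Named with full values are genes past the threshold, the 5 largest increases and 5 largest decreases among tested chaperone genes of at least 5 CPM in the higher group, and a set of landmark chaperones. The genes and lists were chosen with earlier results of these data known. The brain gene list, the gene ratios and the shares by mouse were added after seeing the values.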

Additional observations from a re-analysis of the deposited data

How the results depend on the processing

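Counts of chaperone genes called higher (5) were 3 with upper-quartile scaling, 3 with no filter, 8 with the strict filter of 5 CPM in 3 libraries, 11 with DESeq2 and 9 with limma-voom, and those called lower (0) were 7 with DESeq2, 4 with limma-voom and 2 with the mouse as a replicate block. Partner genes called higher (0) were 1 with the strict filter, 2 with DESeq2, 1 with limma-voom and 1 with the replicate block, and those called lower (4) were 0 with library totals, 2 with no filter, 11 with DESeq2 and 7 with limma-voom. Over all genes, the 588 higher became 888 with the strict filter, 1527 with DESeq2 and 1358 with limma-voom, and the 493 lower became 19 with library totals, 1266 with DESeq2 and 1103 with limma-voom. Library totals gave 628 higher beside the 19 lower and moved the median of all genes to 0.14, and upper quartiles gave 542 higher and 712 lower. After the length and GC correction, with or without the replicate block, all of these counts were 0.

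Leaving out 1 library or 1 mouse gave 0 to 6 chaperone genes higher and 0 to 1 lower, 0 to 1 partner genes higher and 0 to 3 lower, and 0 to 937 genes higher and 0 to 713 lower over all genes, with every count above 0 from the fit without TERT(High) 1. Where an arm kept 2 libraries, the spread was pooled over both arms.

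Of the single-gene values, 18 changed sign, all of genes whose difference was smaller than its error. Dnajb9 (0.04) was at -0.0267 with upper quartiles, -0.24 with limma-voom, -0.0395 with the replicate block and -0.249 and -0.255 with the length and GC correction without and with the block, and ranged from -0.57 to 0.44 with a library or mouse left out. Tcp1 was at -0.00993 with upper quartiles. With a library or mouse left out, Tcp1 ranged from -0.0878 to 0.14, Hspa1a from -0.00169 to 1.09, Hspa1b from -0.0496 to 1.04 and Hspa8 from -0.0198 to 0.34. Of the other single-gene values 383 kept direction and side of the threshold, 57 fell short of it and 16 passed it. The cause of these changes was not tested. Genes below 1 CPM, such as Dnajc6 and Hspa12a, rest on few counts in some libraries, which limits their precision.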

Other observations

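The chaperone genes with the most negative fold changes were 3 genes of low level that followed the brain gene list across libraries, and were chosen for that after their values were seen. Dnajc6, the neuronal uncoating factor of clathrin-coated vesicles, had 3, 1 and 76 counts in TERT(High) 1, 2 and 3 and 198, 0 and 61 counts in TERT(Low) 1, 2 and 3. Hspa12a, a distant Hsp70 relative, was at 0.18, 0.116 and 0.738 CPM against 2.04, 0.0191 and 0.74 CPM, and Dnajc27, a small GTPase with a J domain, at 0.163, 0.231 and 0.549 CPM against 1.58, 0.115 and 0.455 CPM. All 3 were high in TERT(Low) 1, TERT(High) 3 and TERT(Low) 3, the libraries with 46.9 to 110 CPM of neuronal and glial genes, and low in the other 3. Their log2 fold changes of -1.50, -1.44 and -1.19 had SE of 1.86, 1.33 and 0.96, and the groups overlapped. What brought these transcripts into the 3 libraries was not tested.

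Dnajc7, which links Hsp70 and Hsp90, had groups that were narrow and did not overlap, at 14.3, 14.0 and 14.7 CPM in TERT(High) 1, 2 and 3 and 11.1, 11.9 and 11.04 CPM in TERT(Low) 1, 2 and 3 (log2 fold change 0.33, SE 0.13, edgeR adjusted p = 0.148).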
